A study of Mus musculus with 28 samples.

Results

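Solute carriers are the membrane transporters whose mouse gene symbols follow the Slc family, number, "a", number pattern. They were examined in 28 bulk RNA-seq libraries of dendritic cells (DCs) sorted from spleen. Members were chosen by their measured levels: a symbol of that pattern was kept where its mean CPM, the read count scaled to the same total in every library, reached 10 in at least 1 of the 4 groups. Of 24421 genes in the count tables, 331 carried such a symbol and 137 of these, from 40 families, met the threshold. The remaining 194 fell below it, 62 of them without a count in any library. All mice were C57Bl/6, aged 6 to 12 weeks, untreated and homozygous for a loxP-flanked Irf8 gene (Irf8fl/fl). The pDC_TG group held 4 libraries of plasmacytoid DCs (pDC). Their donors were Irf8fl/fl Itgax-cre, so that Itgax, the CD11c gene, drives Cre recombinase. Mice without Cre gave 8 libraries of type 1 conventional DCs (cDC1_WT, sorted as CD24+), 8 of type 2 conventional DCs (cDC2_WT) and 8 of pDC (pDC_WT). The name WT follows the labels, although these mice carry the floxed allele too. Cre under Itgax acts in CD11c-expressing cells at large, so the DC populations and other CD11c+ cells around the sorted pDC may have recombined as well.

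Solute carriers move amino acids, sugars, ions, metals, vitamins, nucleosides and metabolites across the plasma membrane and the membranes of mitochondria, lysosomes, Golgi and ER. In DCs, lysosomal carriers are of interest because they sit in the compartment where endosomal Toll-like receptors signal, and Slc15a4, a lysosomal carrier of histidine and peptides, is known to be needed for interferon production by pDC. IRF8 is a transcription factor needed for cDC1 development and for normal pDC function.

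The libraries held 17299285 to 30787679 counts in genes, with 22805201 to 28725550 in pDC_TG. Unless stated otherwise, levels are CPM scaled by the TMM factors of edgeR, given as mean ± SD over libraries (n = 4 for pDC_TG and n = 8 for each other group) or as the lowest to highest library. Irf8 averaged 1461 ± 257 CPM in pDC_TG, 4024 ± 168 in cDC1_WT, 72.2 ± 14.6 in cDC2_WT and 6144 ± 459 in pDC_WT. The summed level of 10 pDC marker genes was 9721 to 12936 CPM in pDC_TG, at most 125 in cDC1_WT, at most 265 in cDC2_WT and 9963 to 13371 in pDC_WT. Members of that list differed between the pDC groups in both directions. Siglech, Ccr9, Bst2, Klk1 and Smim5 were lower in every pDC_TG library than in any pDC_WT library, with Klk1 at 217 ± 28.3 CPM in pDC_TG and 959.7 ± 197 in pDC_WT. Cox6a2 was higher without overlap, at 1003 ± 395 CPM in pDC_TG and 376 ± 83 in pDC_WT. The list of 10 cDC1 markers summed to 6534 to 8482 CPM in cDC1_WT and to no more than 826 in any other library, with 150 to 226 in pDC_TG and 242 to 357 in pDC_WT. The list of 10 cDC2 markers did not separate the groups as well, with 2734 to 3098 CPM in pDC_TG, 512 to 634 in cDC1_WT, 2937 to 3522 in cDC2_WT and 2491 to 3284 in pDC_WT. One pDC_TG library, replicate 4, stood apart with 196 CPM summed over 9 neutrophil genes, while pDC_WT libraries had at most 2.62, so counts for pDC_TG against pDC_WT are also given without it. The same list summed to 22 CPM in cDC1_WT replicate 4 and to at most 1.64 in the other cDC1_WT libraries. A list of 5 plasma cell genes summed to 1033 to 1274 CPM in pDC_TG and 207 to 375 in pDC_WT. Most of it in pDC_TG was Sdc1, with 1108 ± 160 CPM against 51.2 ± 9.80 in pDC_WT, while Mzb1 had 40.1 ± 23.5 CPM in pDC_TG and 197 ± 57.2 in pDC_WT. A list of 7 T cell genes summed to 20.4 to 30.7 CPM in pDC_TG and 3.42 to 12.4 in pDC_WT. Most of that sum in pDC_TG was Cd5, with 21.3 ± 3.07 CPM against 4.58 ± 2.70 in pDC_WT. Cd3d, Cd3e, Cd3g and Bcl11b averaged at most 0.496 CPM in either pDC group. The part of other cell types in the differences between pDC_TG and pDC_WT was not tested. In bulk RNA, fewer cells of a type and less RNA per cell cannot be told apart.

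Of the 137 members, 93 reached 10 CPM (before scaling) in all 4 groups, 16 in 3 groups, 14 in 2 groups and 14 in 1 group. The 14 were 2 in pDC_TG, 5 in cDC1_WT, 5 in cDC2_WT and 2 in pDC_WT. Since the threshold looked at group means, a member that passed through 1 group alone had to be lower in the rest, so counts of changed members are descriptions and are given beside the counts for the 93. Just inside the threshold were Slc5a6 at 11.2 CPM and Slc25a14 at 11.3 CPM (both in pDC_WT) and Slc22a18 at 11.3 CPM (cDC1_WT). Just outside were Slc22a12, the urate carrier URAT1, at 9.998 CPM (pDC_WT), Slc39a8, a zinc and manganese importer, at 9.66 CPM (pDC_TG), and Slc40a1, the iron exporter ferroportin, at 9.45 CPM (cDC2_WT). All 137 members were tested in every comparison.

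Per kilobase of exon, Slc25a5, the ADP/ATP carrier ANT2 of the inner mitochondrial membrane, had the highest level of any member in every group. It stood at 365 CPM per kb in pDC_TG, 618 in cDC1_WT, 441 in cDC2_WT and 372 in pDC_WT. The next place differed between the populations. In both pDC groups it was held by Slc44a2, a choline transporter-like protein, which had 134 CPM per kb in pDC_TG, 13.5 in cDC1_WT, 64 in cDC2_WT and 134 in pDC_WT. In the conventional DCs that place went to Slc46a3, a lysosomal carrier, with 42.5 CPM per kb in pDC_TG, 203 in cDC1_WT, 414 in cDC2_WT and 61.8 in pDC_WT. Slc25a5 also has processed pseudogene copies in the genome, and it is not stated in the labels how reads were divided among them.

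The members were sorted into 12 substrate classes and their levels summed within each library. Summed over all 137, they took 9744 ± 156 CPM in pDC_TG, 8497 ± 251 in cDC1_WT, 9703 ± 432 in cDC2_WT and 10249 ± 566 in pDC_WT. Sugar carriers (11 members) summed to 613 ± 22.6 CPM in pDC_TG, 201 ± 21.7 in cDC1_WT, 529 ± 42.9 in cDC2_WT and 659 ± 62.5 in pDC_WT, and the cDC1_WT libraries lay below all others. The carriers of carboxylates and fatty acids (7 members) summed to 323 ± 29.5 CPM in pDC_TG, 113 ± 28.1 in cDC1_WT, 112 ± 15.3 in cDC2_WT and 281 ± 41.3 in pDC_WT. Most of the level in the pDC groups came from Slc27a1 alone. Vitamin, choline and haem carriers (11 members) were lowest in cDC1_WT, with 1751 ± 129 CPM in pDC_TG, 837 ± 36.5 in cDC1_WT, 1869 ± 82 in cDC2_WT and 1847 ± 164 in pDC_WT. The even sums of cDC2_WT and pDC in this class differed in their largest member, Slc46a3 in cDC2_WT and Slc44a2 in pDC. Slc44a2 was also a large part in cDC2_WT, at 538 CPM before scaling. Mitochondrial carriers (34 members) ran the other way, with 2522 ± 136 CPM in pDC_TG, 2973 ± 138 in cDC1_WT, 2401 ± 110.5 in cDC2_WT and 2481 ± 119 in pDC_WT. These sums are descriptions without a test, and each leans on its few highest members.

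**Figure D1:**
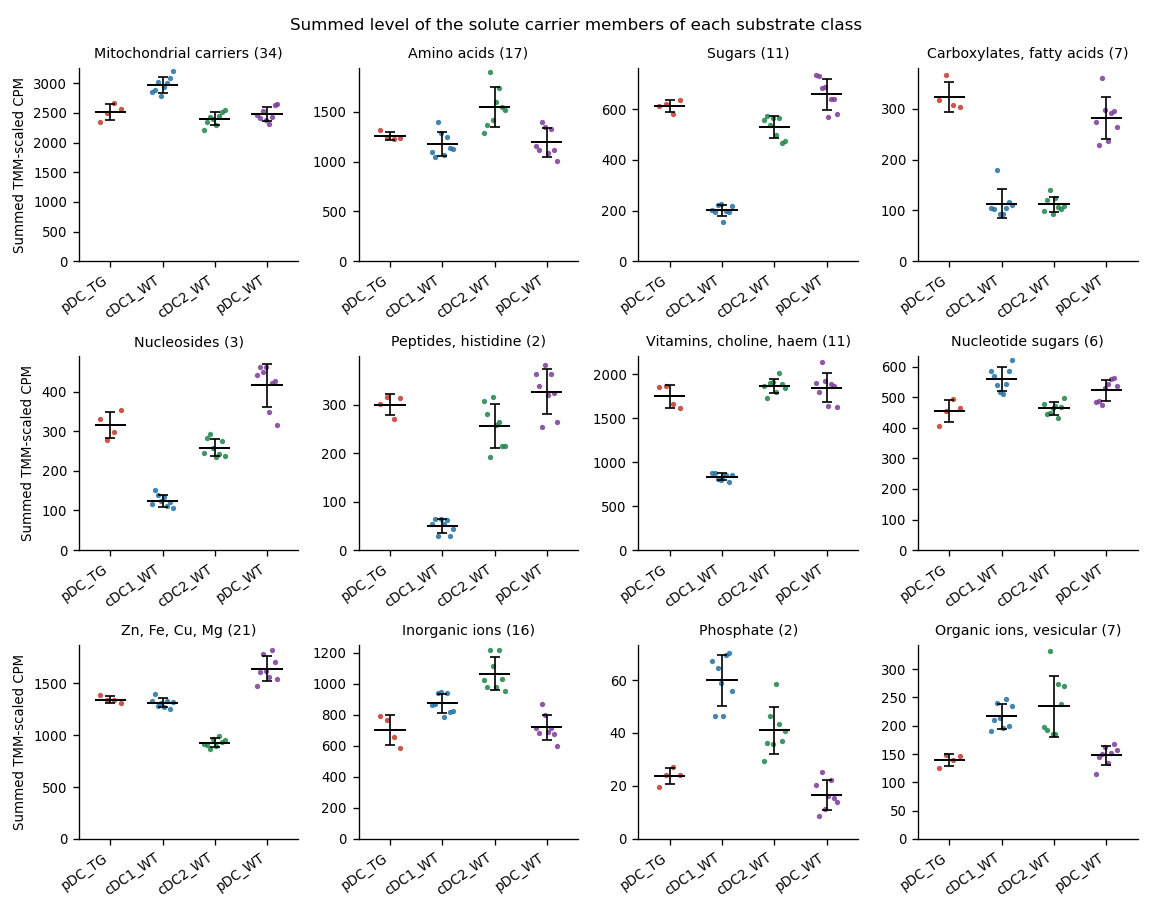
Summed TMM-scaled CPM of the members of each of 12 substrate classes (number of members in brackets), by library, in pDC_TG (4 libraries), cDC1_WT, cDC2_WT and pDC_WT (8 each). Points are libraries, the long bar is the mean and the whiskers are 1 SD; sugar, nucleoside and peptide carriers had their lowest sums in cDC1_WT, and phosphate carriers their lowest in pDC_WT and pDC_TG.

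The first comparison asked how the transporters of pDC from Itgax-cre mice differed from those of pDC without Cre. Of the 137 members, 8 were higher in pDC_TG and 20 lower at an adjusted p below 0.05 (edgeR quasi-likelihood test, Benjamini-Hochberg over 13159 genes), and 109 did not pass. Slc9a2, a sodium/proton exchanger, was the largest rise, and Slc22a23, an orphan carrier, and Slc52a3, a riboflavin importer, were the largest falls. Members of several metal, cation-chloride and vitamin families were lower by smaller amounts. Among all genes tested, 7.72% were higher and 7.04% lower (14.8% in either direction), and among the 9177 genes with 10 CPM in a group 9.65% were higher and 9.31% lower. The members' shares were 5.84% higher and 14.6% lower, and their median log2 fold change (log2FC) was -0.03. Of the 93 members at 10 CPM in all groups, 6 were higher and 16 lower. Without replicate 4 of pDC_TG, 7 members were higher and 19 lower, and all 9 members with at least a 2-fold difference kept their call. When counts were scaled by library totals alone, 12 were higher and 19 lower.

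At least a 2-fold difference past the threshold was found for 3 higher and 6 lower members, where 4.16% and 2.54% of the genes with 10 CPM in a group were called so. The libraries of pDC_TG and pDC_WT did not overlap for 7 higher and 15 lower of the 137 members, called or not. Over all genes tested, such a separation was seen for 4.9% higher and 4.81% lower.

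**Figure D2:**
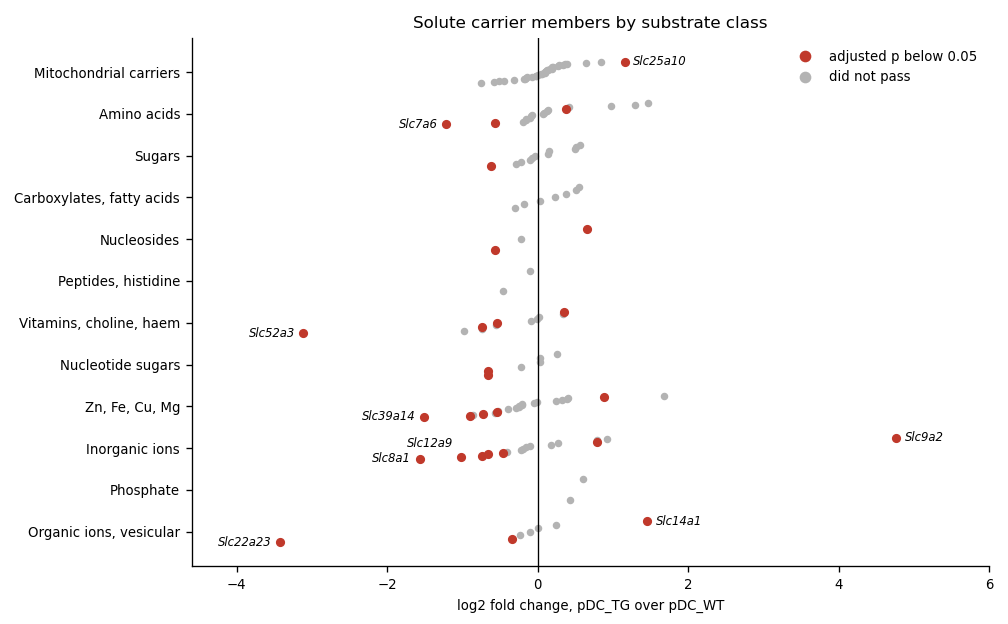
The log2 fold change of pDC_TG over pDC_WT for each of the 137 members, in rows by substrate class, with members past adjusted p below 0.05 in red and the 9 that also changed at least 2-fold named. Most members lay within 1 log2 unit of 0, and the named members ran between -3.43 and 4.76.

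Carriers of sodium, potassium, calcium, protons, chloride and bicarbonate gave the largest rise and several falls. In this class of 16 members, 2 were higher (12.5%), 5 lower (31.2%) and 9 did not pass. Of genes with 10 CPM in a group, 9.65% were higher and 9.31% lower. Slc9a2 encodes NHE2, a plasma membrane sodium/proton exchanger best known from epithelia. Its libraries held 60.2, 75.9, 87.5 and 36.4 CPM in pDC_TG, against 1.13 to 5.34 (median 2.17) in pDC_WT. All 4 pDC_TG libraries were far above all pDC_WT libraries (log2FC 4.76, SE 0.67, adjusted p = 5.69e-06), although they varied among themselves and replicate 4 was the lowest. The level in pDC_TG was also above that of cDC1_WT, 0.287 ± 0.643 CPM, and cDC2_WT, 7.21 ± 2.06 CPM. Slc8a1, the sodium/calcium exchanger NCX1 that moves calcium out of the cell, went the other way. It had 10.1, 5.41, 7.09 and 1.66 CPM in pDC_TG, against 12.1 to 28 (median 16.1) in pDC_WT (log2FC -1.57, SE 0.30, adjusted p = 3.57e-04), and its groups did not overlap. Slc12a9, a member of the cation-chloride cotransporter family with an unsettled substrate, had 31, 31.2, 27.8 and 32.2 CPM in pDC_TG, against 33 to 83.1 (median 62.2) in pDC_WT (log2FC -1.02, SE 0.18, adjusted p = 1.10e-04). Here the lowest pDC_WT library came close to the pDC_TG libraries without reaching them.

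Slc12a4 (KCC1), a potassium-chloride cotransporter that regulates cell volume, averaged 26 ± 3.79 CPM in pDC_TG and 43.4 ± 6.77 in pDC_WT (log2FC -0.74, SE 0.18, adjusted p = 0.00335). Slc9a9, an endosomal sodium/proton exchanger, was lower at 96.6 ± 11.2 CPM in pDC_TG against 153 ± 17.4 in pDC_WT (log2FC -0.66, SE 0.10, adjusted p = 2.67e-05). Slc4a7, a sodium-bicarbonate cotransporter, was lower by a smaller amount (log2FC -0.47, SE 0.12, adjusted p = 0.00811), a call lost without pDC_TG replicate 3 and with WT replicates 5 to 8 only.

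Among 21 carriers of zinc, iron, copper and magnesium, 1 was higher (4.76%), 4 lower (19%) and 16 did not pass. Of genes with 10 CPM in a group, 9.65% were higher and 9.31% lower. Slc39a14, the importer ZIP14 of zinc, manganese and non-transferrin iron, had 47.5, 36.2, 44.6 and 46.3 CPM in pDC_TG, against 107 to 146 (median 119) in pDC_WT (log2FC -1.51, SE 0.34, adjusted p = 0.00217). The groups were well apart, and both pDC groups were above cDC1_WT, 10.7 ± 6.22 CPM, and cDC2_WT, 13.5 ± 5.46 CPM. Slc39a6 (ZIP6), a zinc importer of the same family, was instead higher, with 109, 83, 107 and 69.8 CPM in pDC_TG and 41.4 to 61.5 (median 49.5) in pDC_WT (log2FC 0.88, SE 0.12, adjusted p = 1.53e-06). Slc30a4 (ZnT4), which moves zinc into vesicles, was lower at 38.3 ± 4.87 CPM in pDC_TG against 63.7 ± 14 in pDC_WT (log2FC -0.73, SE 0.18, adjusted p = 0.00399). That call was lost with WT replicates 1 to 4 only. The copper genes Slc31a1 (CTR1, the high-affinity importer) and Slc31a2 (CTR2, its relative in endosomes and lysosomes) were both lower. Slc31a2 averaged 10.9 ± 3.61 CPM in pDC_TG and 20.4 ± 3.65 in pDC_WT (log2FC -0.90, SE 0.22, adjusted p = 0.00376), a call also lost with WT replicates 1 to 4 only. Slc31a1 averaged 34 ± 10.6 CPM in pDC_TG and 49.5 ± 5.78 in pDC_WT (log2FC -0.54, SE 0.15, adjusted p = 0.0127), a call lost without either pDC_TG replicate 2 or replicate 3. The Slc31a1 call was also lost with WT replicates 1 to 4 only and with WT replicates 5 to 8 only.

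Slc41a2, a magnesium transporter, did not pass although its groups were apart. It had 241, 233, 221 and 245 CPM in pDC_TG, against 351 to 497 (median 412) in pDC_WT (log2FC -0.86, SE 0.43, adjusted p = 0.202). When only the pDC libraries were filtered, scaled and fitted, its adjusted p was 9.77e-06 (edgeR). Slc25a53, a mitochondrial carrier of unknown substrate, behaved likewise with 97.5, 109, 131 and 117 CPM in pDC_TG and 143 to 182 (median 154) in pDC_WT (log2FC -0.46, SE 0.30, adjusted p = 0.382, and 0.00371 with the pDC libraries alone).

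Of 11 vitamin, choline and haem carriers, 1 was higher (9.09%), 3 were lower (27.3%) and 7 did not pass. Of genes with 10 CPM in a group, 9.65% were higher and 9.31% lower. Slc52a3 and Slc52a2, which both take up riboflavin (vitamin B2), were lower in pDC_TG. Slc52a3 had 1.04, 1.02, 4.96 and 12.7 CPM in pDC_TG, against 31.6 to 66.7 (median 39.5) in pDC_WT (log2FC -3.12, SE 0.84, adjusted p = 0.00971). The pDC_TG libraries differed more than 10-fold among themselves, with replicate 4 the highest, and none reached the lowest pDC_WT library. Without replicate 4 the log2FC of Slc52a3 was -4.19. Slc52a2 averaged 28.4 ± 5.28 CPM in pDC_TG and 47.5 ± 9.42 in pDC_WT (log2FC -0.74, SE 0.17, adjusted p = 0.00195). Slc46a3 had 106, 96.6, 97.7 and 118 CPM in pDC_TG and 130.0 to 172 (median 153) in pDC_WT (log2FC -0.54, SE 0.07, adjusted p = 3.35e-06). Slc48a1 (HRG1), which moves haem out of lysosomes, was higher at 138 ± 8.83 CPM in pDC_TG against 108 ± 11 in pDC_WT (log2FC 0.35, SE 0.10, adjusted p = 0.0124). The Slc48a1 call was lost with WT replicates 1 to 4 only. The choline carriers Slc44a2 and Slc44a1 were at 1159 and 247 CPM in pDC_TG and at 1162 and 245 CPM in pDC_WT, with log2FC of -0.00 (SE 0.09) and 0.01 (SE 0.09) that did not pass.

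Of 17 amino acid carriers, 1 was higher (5.88%), 2 were lower (11.8%) and 14 did not pass. Of genes with 10 CPM in a group, 9.65% were higher and 9.31% lower. Slc7a6, the light chain y+LAT2 that exchanges cationic for neutral amino acids and pairs with the heavy chain Slc3a2 (CD98), had 11.8, 14.4, 15.2 and 10.6 CPM in pDC_TG, against 22.2 to 36.1 (median 30.5) in pDC_WT (log2FC -1.22, SE 0.21, adjusted p = 9.62e-05). Its groups did not overlap. Slc7a5 (LAT1), the light chain that imports leucine and other large neutral amino acids, was lower at 61 ± 11.7 CPM in pDC_TG against 90.8 ± 22.2 in pDC_WT (log2FC -0.57, SE 0.17, adjusted p = 0.0212), and lost the call without pDC_TG replicate 2 or 3. The Slc7a5 call was also lost with WT replicates 5 to 8 only. Slc3a2, the shared partner of Slc7a6 and Slc7a5, had 171 ± 19.9 CPM in pDC_TG and 163 ± 26.2 in pDC_WT and did not pass (log2FC 0.07, SE 0.15, adjusted p = 0.849). Slc38a1 (SNAT1), a glutamine importer, was the only amino acid carrier called higher (log2FC 0.37, SE 0.13, adjusted p = 0.0477), and this call was lost in 12 of 21 other settings, among them the one without pDC_TG replicate 4. Slc38a9, the lysosomal arginine sensor of mTORC1, and Slc1a5, the glutamine exchanger ASCT2, did not pass (log2FC 0.13, SE 0.19, adjusted p = 0.755, and log2FC 0.13, SE 0.14, adjusted p = 0.669).

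By the edgeR quasi-likelihood test at adjusted p below 0.05, 9.65% of genes with 10 CPM in a group were higher and 9.31% lower. Of 34 mitochondrial carriers, that test called 1 higher and 0 lower. At an unadjusted p below 0.05, 6 were higher and 2 lower, and DESeq2 called 1 higher and 2 lower. The 1 called by edgeR, Slc25a10, exchanges malate and succinate for phosphate across the inner membrane. It had 24.6, 29.6, 31.6 and 39.4 CPM in pDC_TG, against 6.57 to 19.8 (median 15.9) in pDC_WT (log2FC 1.16, SE 0.18, adjusted p = 3.01e-05). The lowest pDC_TG library was above the highest pDC_WT library. cDC1_WT, with 62.4 ± 10.7 CPM, and cDC2_WT, with 46.8 ± 5.52, were higher still. The ADP/ATP carriers Slc25a5 and Slc25a4 did not pass (log2FC -0.02, SE 0.08, adjusted p = 0.927, and log2FC 0.19, SE 0.07, adjusted p = 0.0988).

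The urea transporter Slc14a1 (UT-B) had 28.2, 38.5, 45.3 and 33.5 CPM in pDC_TG, against 6.77 to 22 (median 13) in pDC_WT (log2FC 1.46, SE 0.31, adjusted p = 0.00113). Every pDC_TG library exceeded every pDC_WT library, and cDC2_WT, at 121 ± 48.7 CPM, was the highest group. Slc22a23, an orphan of the organic ion transporter family, was the largest fall. It had 0, 3.90, 0 and 3.92 CPM in pDC_TG, against 16.5 to 26.2 (median 21.7) in pDC_WT (log2FC -3.43, SE 0.66, adjusted p = 4.25e-04). Replicates 1 and 3 of pDC_TG were without a count and replicates 2 and 4 held about 4 CPM. Without replicate 4 the log2FC of Slc22a23 was -4.03. Slc10a3, an orphan of the bile acid transporter family, was lower by a small amount (log2FC -0.34, SE 0.10, adjusted p = 0.0194), and 12.8% of its exonic bases are shared with another gene. The Slc10a3 call was lost in 6 of 21 other settings, among them the fits without pDC_TG replicate 1 or 3 and the one that used only pDC libraries.

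Promoter sequence is shown for the members with at least a 2-fold difference, to set the motifs bound by IRF8 beside the genes that changed in pDC_TG. Windows covered 250 bases before to 50 bases after an annotated start in RefSeq on GRCm38.p6, and 102 members had at least 1 window. Of the 9 members, 5 had one, and 3 are printed, 1 with and 2 without a match. Both motifs searched are a pair of 4-letter parts with any 2 bases between. In the interferon-stimulated response element (ISRE) GAAA is followed by GAAA, and in the ETS-IRF composite element (EICE) GGAA is followed by GAAA. Both strands were searched, and the same bases on 1 strand can match only 1 of the motifs. The capitals mark a match to the EICE.
Slc8a1 (chr17:81738338-81738637, minus strand): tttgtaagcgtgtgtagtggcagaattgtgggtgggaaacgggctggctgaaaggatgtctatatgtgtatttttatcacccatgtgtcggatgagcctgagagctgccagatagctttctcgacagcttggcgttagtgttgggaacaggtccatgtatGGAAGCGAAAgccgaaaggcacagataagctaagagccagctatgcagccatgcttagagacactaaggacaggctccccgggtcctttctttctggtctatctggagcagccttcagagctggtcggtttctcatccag
Slc22a23 (chr13:34345169-34345468, minus strand): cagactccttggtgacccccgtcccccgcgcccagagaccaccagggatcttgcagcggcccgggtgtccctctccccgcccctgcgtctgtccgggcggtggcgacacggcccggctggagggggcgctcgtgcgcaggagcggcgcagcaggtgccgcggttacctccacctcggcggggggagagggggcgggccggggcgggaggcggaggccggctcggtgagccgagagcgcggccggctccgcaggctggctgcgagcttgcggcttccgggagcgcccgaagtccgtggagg
Slc25a10 (chr11:120491587-120491886, plus strand): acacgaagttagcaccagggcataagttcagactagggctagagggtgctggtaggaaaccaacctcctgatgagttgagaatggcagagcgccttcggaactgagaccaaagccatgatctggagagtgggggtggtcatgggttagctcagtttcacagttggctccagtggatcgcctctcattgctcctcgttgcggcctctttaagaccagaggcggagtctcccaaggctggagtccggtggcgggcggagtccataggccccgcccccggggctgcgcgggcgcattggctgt

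The match in Slc8a1 began 90 bases before the start site. The Slc22a23 and Slc25a10 windows held no match to either motif, nor did those of Slc7a6 and Slc12a9, which are not printed. Among the 144 windows of members, 4.17% held the EICE, in Slc29a1, Slc37a2, Slc4a8, Slc7a1, Slc7a7 and Slc8a1, against 2.72% of all 32851 windows. The ISRE was in 2.08% of the member windows, in Slc25a15, Slc25a22 and Slc37a1, against 3.44% of all windows. Of these 9 genes, Slc8a1 was the only one called between pDC_TG and pDC_WT. In that comparison 8 of the 137 members were higher and 20 lower, and 14.8% of all genes tested were called in either direction. Whether a match goes with a call was not tested. A match describes letters in a window and is not a measured binding site.

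**Figure D3:**
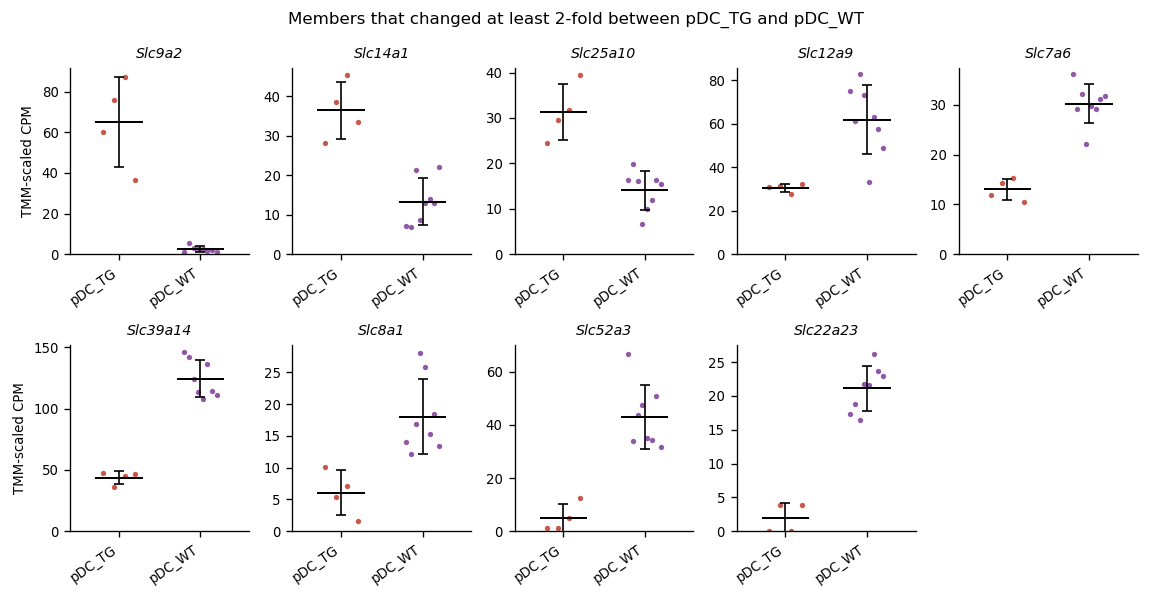
TMM-scaled CPM in each library of pDC_TG (4) and pDC_WT (8) for the 9 members that changed at least 2-fold past adjusted p below 0.05. Points are libraries, the long bar is the mean and the whiskers are 1 SD; the groups did not overlap in any of the 9 panels.

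In the remaining classes, the lysosomal nucleoside exporter Slc29a3 (ENT3) was lower at 190.4 ± 24.7 CPM in pDC_TG against 283 ± 40.9 in pDC_WT (log2FC -0.57, SE 0.15, adjusted p = 0.00672). With WT replicates 5 to 8 only, the Slc29a3 call was lost. Slc43a3, a purine nucleobase carrier, was higher at 23.2 ± 3.01 CPM in pDC_TG against 14.8 ± 3.27 in pDC_WT (log2FC 0.65, SE 0.21, adjusted p = 0.0339), a call lost in 9 of 21 other settings, among them the fits without pDC_TG replicate 2, 3 or 4 or pDC_WT replicate 3, 4 or 6. Slc33a1, which carries acetyl-CoA into the ER, averaged 65.6 ± 12.8 CPM in pDC_TG and 104 ± 10.2 in pDC_WT (log2FC -0.66, SE 0.13, adjusted p = 3.98e-04), with 32% of its exonic bases shared. Slc35a3, the UDP-N-acetylglucosamine carrier of the Golgi, was lower too (log2FC -0.66, SE 0.17, adjusted p = 0.00755), but not once pDC_TG replicate 1 or 4 was left out. The Slc35a3 call was also lost with WT replicates 1 to 4 only. Slc2a6 (GLUT6), a lysosomal hexose carrier, was lower at 116 ± 17.8 CPM in pDC_TG against 179 ± 43.8 in pDC_WT (log2FC -0.62, SE 0.21, adjusted p = 0.0453), and 14 of 21 other settings lost the call, including every fit without 1 pDC_TG library. The glucose importers Slc2a1 (GLUT1) and Slc2a3 (GLUT3) did not pass. Slc2a1 had 55.3, 58.6, 62.4 and 61.1 CPM in pDC_TG and 29.3 to 53.8 (median 42.7) in pDC_WT, without overlap (log2FC 0.49, SE 0.18, adjusted p = 0.0731; 0.0435 with the pDC libraries alone). Slc2a3 had 178 ± 3.95 CPM in pDC_TG and 183 ± 33.7 in pDC_WT (log2FC -0.03, SE 0.16, adjusted p = 0.948). Of the 7 carriers of carboxylates and fatty acids, 2 of peptides and 2 of phosphate, 0 passed by the quasi-likelihood test. DESeq2 also called 0 of them. At an unadjusted p below 0.05 by the quasi-likelihood test, 1 phosphate carrier was higher. At the adjusted threshold, 9.65% of genes with 10 CPM in a group were higher and 9.31% lower by that test. Slc15a4 stood at 289 ± 21.2 CPM in pDC_TG and 311 ± 46.5 in pDC_WT (log2FC -0.11, SE 0.19, adjusted p = 0.820).

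Between the WT populations more members were called, and so were more of all genes tested. These comparisons had 8 libraries on each side, while pDC_TG had 4 libraries against 8. In cDC1_WT against pDC_WT, 48 members were higher and 53 lower, against 30.6% and 30.3% of all genes tested (60.9% in either direction) and 35.2% and 32.6% of those with 10 CPM in a group. The members' shares were 35% and 38.7%. In the 93 members at 10 CPM in all groups, 29 were higher and 36 lower. When counts were scaled by library totals alone, the split for the 137 members became 42 higher and 70 lower. In cDC2_WT against pDC_WT, 44 members were higher and 50 lower, where 28.8% and 28.3% of all genes tested were called (57.1% in either direction) and 32% and 31.9% of those with 10 CPM in a group. When counts were scaled by library totals alone, 38 were higher and 59 lower. Here the 93 members gave 23 higher and 36 lower. In cDC1_WT against cDC2_WT, 46 members were higher and 45 lower, where 22.8% and 23.4% of all genes tested (46.2% in either direction) and 28.2% and 26.4% of those with 10 CPM in a group were called, and the 93 gave 30 higher and 26 lower. With scaling by library totals alone, 39 were higher and 51 lower. Without cDC1_WT replicate 4, 48 members were higher and 50 lower against pDC_WT, and 46 higher and 43 lower against cDC2_WT. The comparisons with pDC_WT share those 8 libraries with each other and with the comparison of pDC_TG.

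At least 2-fold differences past the threshold numbered 30 higher and 28 lower members in cDC1_WT against pDC_WT, where 15.3% and 15.2% of the genes with 10 CPM in a group were called so. They numbered 27 and 22 in cDC2_WT against pDC_WT (15.3% and 13.2% of those genes), and 18 and 26 in cDC1_WT against cDC2_WT (8.33% and 11%).

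**Figure D4:**
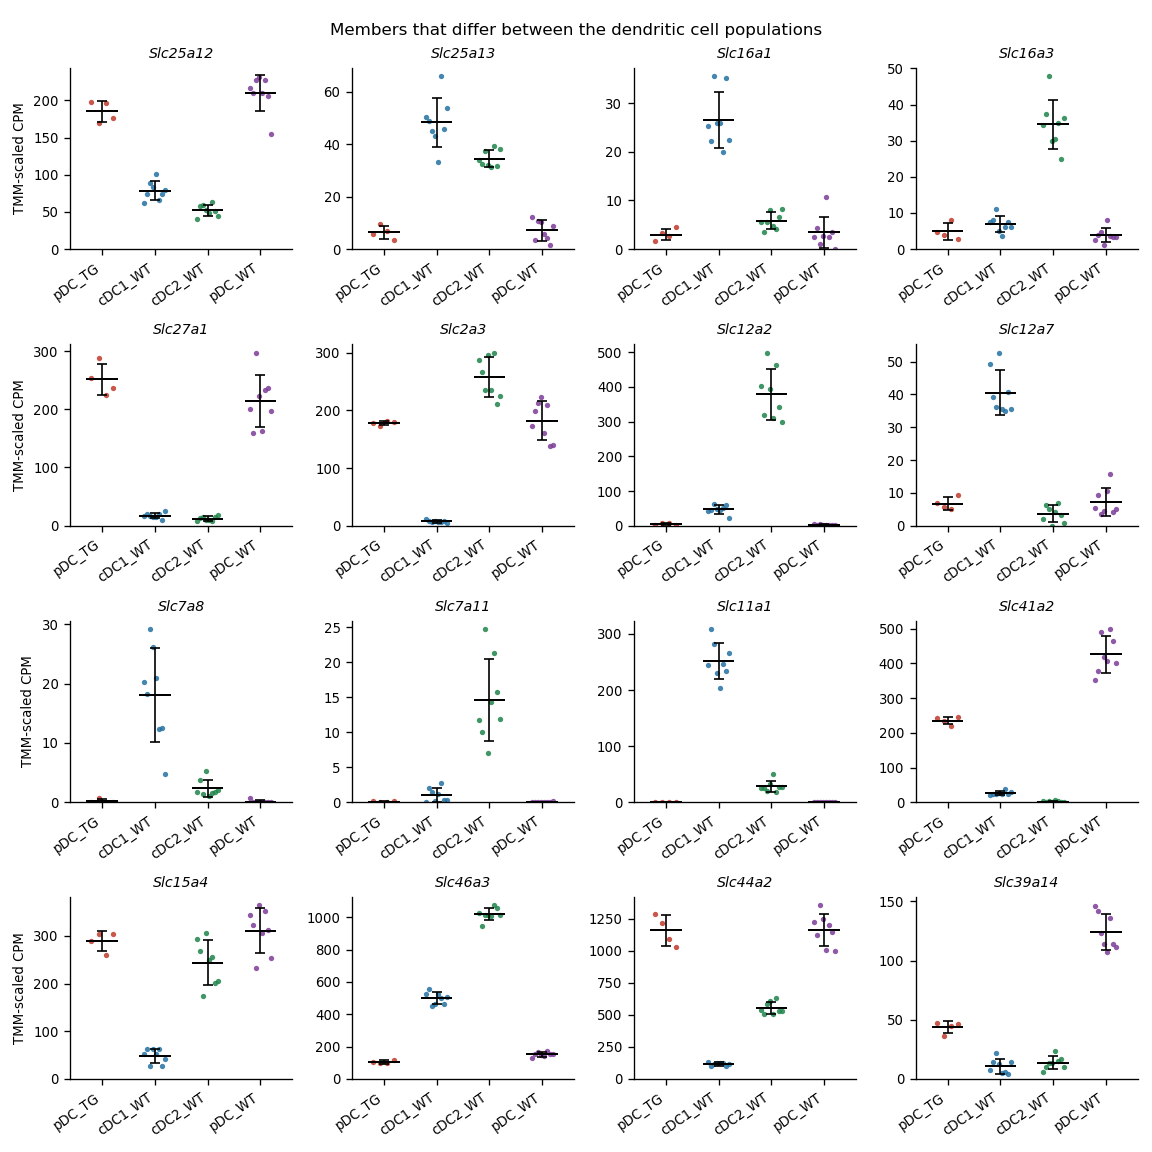
TMM-scaled CPM in each library of pDC_TG (4), cDC1_WT, cDC2_WT and pDC_WT (8 each) for 16 members that differ between the populations, with the mean (long bar) and 1 SD (whiskers). Slc25a12, Slc27a1, Slc41a2, Slc44a2 and Slc39a14 were highest in the pDC groups, Slc25a13, Slc16a1, Slc12a7, Slc7a8 and Slc11a1 in cDC1_WT, and Slc16a3, Slc12a2, Slc2a3, Slc7a11 and Slc46a3 in cDC2_WT.

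Sugar carriers were lower in cDC1_WT than in pDC_WT for 7 of 11 members (63.6%) and higher for 2 (18.2%). Of genes with 10 CPM in a group, 32.6% were lower and 35.2% higher. Slc2a3, the high-affinity neuronal-type glucose importer GLUT3, held 4.51 to 11.3 (median 7.27) CPM in cDC1_WT libraries, 212 to 300.2 (median 251) in cDC2_WT and 138 to 224 (median 186) in pDC_WT. The cDC1_WT libraries were far below all others (log2FC -4.63, SE 0.15, adjusted p = 1.05e-21 against pDC_WT; log2FC -5.12, SE 0.15, adjusted p = 5.51e-22 against cDC2_WT). The ubiquitous importer Slc2a1 differed little, with 37.8 ± 11.6 CPM in cDC1_WT, 51.7 ± 6.40 in cDC2_WT and 42.2 ± 9.42 in pDC_WT, and passed only between cDC1_WT and cDC2_WT (log2FC -0.45, SE 0.15, adjusted p = 0.0169). Slc2a6 and Slc37a2, a phosphate-linked glucose-6-phosphate exchanger of the ER, were lowest in cDC1_WT and highest in pDC_WT. Slc37a2 held 2.17 to 9.66 (median 5.44) CPM in cDC1_WT, 14.8 to 33.9 (median 27.6) in cDC2_WT and 69.3 to 116 (median 87.2) in pDC_WT (log2FC -4.04, SE 0.22, adjusted p = 5.60e-16 for cDC1_WT against pDC_WT). Slc2a6 averaged 23 ± 7.35 CPM in cDC1_WT, 49.1 ± 7.85 in cDC2_WT and 179 ± 43.8 in pDC_WT. The relatives of Slc37a2, Slc37a3 and Slc37a1, were instead higher in both conventional populations than in pDC_WT. Slc37a3 averaged 24.3 ± 3.60 CPM in cDC1_WT, 14.3 ± 2.42 in cDC2_WT and 5.53 ± 1.23 in pDC_WT, and Slc37a1 averaged 27.3 ± 7.42, 28 ± 5.52 and 14.4 ± 4.46 CPM in the same groups.

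The proton-coupled carriers of lactate and other monocarboxylates were divided between the conventional DCs. Slc16a1 (MCT1) held 20.0 to 35.5 (median 25.6) CPM in cDC1_WT, 3.55 to 8.30 (median 5.58) in cDC2_WT and 0 to 10.8 (median 2.65) in pDC_WT (log2FC 2.19, SE 0.46, adjusted p = 2.00e-04 for cDC1_WT against cDC2_WT). Slc16a3 (MCT4), known as a lactate exporter of glycolytic cells, held 3.70 to 11.2 (median 6.77) CPM in cDC1_WT, 25 to 47.9 (median 34.6) in cDC2_WT and 1.17 to 7.96 (median 3.45) in pDC_WT (log2FC -2.33, SE 0.27, adjusted p = 2.42e-08 for cDC1_WT against cDC2_WT). Each was thus highest in a different population, with no overlap between cDC1_WT and cDC2_WT. Slc16a7 (MCT2) was low in cDC1_WT, at 1.89 ± 1.67 CPM, against 16.2 ± 3.60 in cDC2_WT and 16.8 ± 4.84 in pDC_WT. Slc16a6, an MCT relative, averaged 25.7 ± 15.1 CPM in cDC1_WT, 11.2 ± 4.19 in cDC2_WT and 0.669 ± 0.395 in pDC_WT, with 23.5% of its exonic bases shared. Slc27a1 (FATP1), a long-chain fatty acid transport protein, held 10.6 to 26 (median 16.9) CPM in cDC1_WT, 7.33 to 18.5 (median 11.9) in cDC2_WT and 159.6 to 297 (median 211) in pDC_WT. It was lower in cDC1_WT (log2FC -3.61, SE 0.19, adjusted p = 1.45e-16) and in cDC2_WT (log2FC -4.14, SE 0.19, adjusted p = 1.18e-17) than in pDC_WT.

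Among 34 mitochondrial carriers, 11 were higher (32.4%) and 9 lower (26.5%) in cDC1_WT than in pDC_WT. Of genes with 10 CPM in a group, 35.2% were higher and 32.6% lower. Against cDC2_WT, 14 carriers were higher (41.2%) and 8 lower (23.5%) in cDC1_WT, where those genes gave 28.2% and 26.4%. The aspartate/glutamate carriers of the malate-aspartate shuttle, Slc25a12 (aralar) and Slc25a13 (citrin), differed in where pDC_WT stood. Slc25a12 held 61.6 to 101 (median 76.8) CPM in cDC1_WT, 40.1 to 63 (median 51.8) in cDC2_WT and 155 to 231 (median 213) in pDC_WT. Slc25a13 held 33.4 to 66.1 (median 47.5) CPM in cDC1_WT, 31.5 to 39.2 (median 33.3) in cDC2_WT and 1.39 to 12.2 (median 7.40) in pDC_WT. pDC_WT was the highest WT group for Slc25a12 and the lowest for Slc25a13. Against pDC_WT, cDC1_WT was lower for Slc25a12 (log2FC -1.42, SE 0.10, adjusted p = 2.06e-13) and higher for Slc25a13 (log2FC 2.76, SE 0.28, adjusted p = 8.14e-10). Per kilobase, pDC_WT had 28.6 CPM of Slc25a12 and 1.89 of Slc25a13, and cDC1_WT had 10.7 and 12.7 CPM per kb. The main ADP/ATP carrier Slc25a5 averaged 1017 ± 79.5 CPM in cDC1_WT, 726 ± 53.8 in cDC2_WT and 612 ± 60.9 in pDC_WT (log2FC 0.73, SE 0.07, adjusted p = 8.09e-11 for cDC1_WT against pDC_WT).

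Several further mitochondrial carriers were highest in cDC1_WT. Slc25a20, which brings acylcarnitines in for fatty acid oxidation, averaged 96.6 ± 12.5 CPM in cDC1_WT, 40.2 ± 6.95 in cDC2_WT and 37.4 ± 5.97 in pDC_WT (log2FC 1.37, SE 0.12, adjusted p = 3.84e-11 for cDC1_WT against pDC_WT). The plasma membrane carnitine importer Slc22a5 (OCTN2) was also highest in cDC1_WT, with 51.4 ± 11.4 CPM in cDC1_WT, 14.2 ± 2.60 in cDC2_WT and 11.7 ± 3.79 in pDC_WT (log2FC 2.14, SE 0.19, adjusted p = 4.97e-11). Slc25a38, the glycine carrier of haem synthesis, had 50.5 ± 6.22 CPM in cDC1_WT, 15.1 ± 4.28 in cDC2_WT and 12.5 ± 3.99 in pDC_WT. Slc25a26, the S-adenosylmethionine carrier, had 17.2 ± 3.81 CPM in cDC1_WT, 5.59 ± 2.00 in cDC2_WT and 3.06 ± 1.41 in pDC_WT. Both rose against pDC_WT without overlap (log2FC 2.01, SE 0.21, adjusted p = 6.48e-10 for Slc25a38; log2FC 2.50, SE 0.29, adjusted p = 1.17e-08 for Slc25a26). Slc25a24, the ATP-magnesium/phosphate carrier, was low in cDC2_WT, with 48.2 ± 4.42 CPM in cDC1_WT, 8.59 ± 4.20 in cDC2_WT and 34.4 ± 6.08 in pDC_WT. Slc25a33, a pyrimidine nucleotide carrier with 14.9% of its exonic bases shared, and Slc25a37 (mitoferrin-1, an iron importer) were highest in cDC2_WT, at 66.1 ± 34.9 and 15.1 ± 4.62 CPM. Slc25a53 was nearly confined to the pDC groups among these libraries, with 0.392 to 3.15 (median 1.70) CPM in cDC1_WT and 2.97 to 17.2 (median 8.55) in cDC2_WT, against 143 to 182 (median 154) in pDC_WT.

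Of 17 amino acid carriers, 8 were higher (47.1%) and 7 lower (41.2%) in cDC1_WT than in pDC_WT. There 35.2% of genes with 10 CPM in a group were higher and 32.6% lower. In cDC2_WT against pDC_WT, 10 carriers were higher (58.8%) and 6 lower (35.3%), where those genes gave 32% and 31.9%. The heavy chain Slc3a2 was higher in both conventional populations, with 295 ± 48.7 CPM in cDC1_WT, 239 ± 57.2 in cDC2_WT and 163 ± 26.2 in pDC_WT. Its light chains differed in where they were highest. Slc7a8 (LAT2), a carrier of neutral amino acids, held 4.75 to 29.1 (median 19.3) CPM in cDC1_WT, 1.02 to 5.35 (median 1.72) in cDC2_WT and 0 to 0.806 (median 0) in pDC_WT (log2FC 2.95, SE 0.72, adjusted p = 0.00121 for cDC1_WT against cDC2_WT). Slc7a11 (xCT), which imports cystine in exchange for glutamate, held 0.0801 to 2.72 (median 0.801) CPM in cDC1_WT, 7.10 to 24.7 (median 13.1) in cDC2_WT and 0 to 0.150 (median 0.0195) in pDC_WT (log2FC -3.77, SE 0.57, adjusted p = 2.30e-06 for cDC1_WT against cDC2_WT). Slc7a7 (y+LAT1) averaged 24.6 ± 4.83 CPM in cDC1_WT, 47.5 ± 4.43 in cDC2_WT and 10.9 ± 2.79 in pDC_WT. Slc7a5 (LAT1) ran the other way, with 68.8 ± 7.54 CPM in cDC1_WT, 39 ± 8.37 in cDC2_WT and 90.8 ± 22.2 in pDC_WT (log2FC -1.22, SE 0.14, adjusted p = 8.83e-09 for cDC2_WT against pDC_WT).

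The glutamine carriers also differed. Slc38a2 (SNAT2) was highest in cDC2_WT, with 224 ± 38.2 CPM in cDC1_WT, 419 ± 90.9 in cDC2_WT and 190.2 ± 34.5 in pDC_WT. Slc38a1 was lowest in cDC1_WT, at 104 ± 21.8 CPM against 218 ± 14.5 in cDC2_WT and 267 ± 44.9 in pDC_WT (log2FC -1.36, SE 0.11, adjusted p = 2.70e-12 for cDC1_WT against pDC_WT). Slc43a2 (LAT4) was also low in cDC1_WT, with 35.1 ± 7.27 CPM against 153 ± 29.9 in cDC2_WT and 84.8 ± 18.8 in pDC_WT. The taurine importer Slc6a6 was higher in cDC1_WT, 92.2 ± 19.3 CPM, and cDC2_WT, 102 ± 15.9, than in pDC_WT, 47 ± 7.49. Slc6a12, the betaine and GABA carrier BGT1, had 0 to 5.26 (median 2.59) CPM in cDC1_WT and 17.1 to 30.8 (median 24.6) in cDC2_WT (log2FC -3.17, SE 0.50, adjusted p = 1.15e-05 for cDC1_WT against cDC2_WT). It had no count in pDC_WT, so that cDC1_WT was at least 184-fold and cDC2_WT at least 1665-fold higher than the level of 3 counts over the pDC_WT group.

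The lysosomal carriers linked to innate sensing were not ordered alike. Slc15a4 held 27.2 to 62.8 (median 52.7) CPM in cDC1_WT, 174 to 305 (median 252) in cDC2_WT and 233 to 364 (median 317) in pDC_WT (log2FC -2.67, SE 0.16, adjusted p = 6.58e-15 for cDC1_WT against pDC_WT). Its relative Slc15a3 averaged 1.21 ± 0.731 CPM in cDC1_WT, 12.3 ± 3.19 in cDC2_WT and 15.6 ± 4.20 in pDC_WT, with 28.1% of its exonic bases shared. Both were thus low in cDC1_WT, and neither passed between cDC2_WT and pDC_WT (log2FC -0.35, SE 0.15, adjusted p = 0.0506 for Slc15a4; log2FC -0.34, SE 0.28, adjusted p = 0.311 for Slc15a3). Slc15a4 passed as lower in cDC2_WT in a fit of those libraries alone (edgeR adjusted p = 0.0184) and when cDC2_WT replicate 1 or 4 or pDC_WT replicate 3 or 8 was left out, with adjusted p of 0.0359, 0.0304, 0.0308 and 0.0372. Slc29a3, which exports nucleosides from lysosomes, held 50.3 to 97.6 (median 73.5) CPM in cDC1_WT, 78.2 to 123 (median 105) in cDC2_WT and 210.3 to 329 (median 289) in pDC_WT (log2FC -1.97, SE 0.12, adjusted p = 6.75e-15 and log2FC -1.48, SE 0.12, adjusted p = 4.16e-12 for cDC1_WT and cDC2_WT against pDC_WT). For Slc46a3 pDC_WT was instead the lowest WT group, with 448 to 555 (median 506) CPM in cDC1_WT, 944 to 1074 (median 1014) in cDC2_WT and 130.0 to 172 (median 153) in pDC_WT (log2FC 1.72, SE 0.06, adjusted p = 9.63e-21 for cDC1_WT against pDC_WT; log2FC 2.74, SE 0.06, adjusted p = 2.84e-25 for cDC2_WT). No library of one WT population overlapped another for Slc46a3. The plasma membrane nucleoside carrier Slc29a1 (ENT1) was lowest in cDC1_WT, at 46.9 ± 3.54 CPM against 142 ± 18.4 in cDC2_WT and 119 ± 20.9 in pDC_WT.

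Metal carriers held some of the sharpest differences. Slc11a1 (NRAMP1), a proton-driven exporter of iron and manganese from phagosomes known from resistance to intracellular bacteria, held 203 to 308 (median 246) CPM in cDC1_WT, 19.1 to 50.4 (median 26.4) in cDC2_WT and 0 to 0.525 (median 0) in pDC_WT (log2FC 3.13, SE 0.31, adjusted p = 1.39e-09 for cDC1_WT against cDC2_WT). Its relative Slc11a2 (DMT1), which carries iron out of endosomes, held 43.4 to 76.4 (median 54.9) CPM in cDC1_WT, 25.7 to 40.1 (median 28) in cDC2_WT and 2.55 to 6.72 (median 3.89) in pDC_WT. Slc31a2 was also highest in cDC1_WT, at 114 ± 18.2 CPM against 26.2 ± 7.48 in cDC2_WT and 20.4 ± 3.65 in pDC_WT (log2FC 2.48, SE 0.18, adjusted p = 2.24e-13 for cDC1_WT against pDC_WT). Slc11a1 is also expressed by macrophages, and the summed level of 8 red pulp macrophage markers was 77.5 to 142 CPM in cDC1_WT, 452 to 549 in cDC2_WT and 3.11 to 10.4 in pDC_WT. In cDC2_WT most of that sum was Adgre1, with 370 ± 30.9 CPM. There C1qa, C1qb and C1qc averaged 25.4, 34.1 and 21.2 CPM, Vcam1 32.5, Spic 15.6, Mertk 0.677 and Cd5l 0.855. In cDC1_WT most of the sum was Vcam1, with 87.7 ± 19.2 CPM. The part of macrophage RNA in the cDC1_WT and cDC2_WT values was not tested.

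Slc41a2 and Slc39a14 were instead highest in pDC_WT. Slc41a2 held 21.6 to 37.4 (median 23.9) CPM in cDC1_WT, 0 to 6.60 (median 2.15) in cDC2_WT and 351 to 497 (median 412) in pDC_WT (log2FC -4.01, SE 0.38, adjusted p = 2.29e-10 for cDC1_WT, log2FC -7.60, SE 0.46, adjusted p = 1.31e-14 for cDC2_WT). Slc39a14 was lower in cDC1_WT (log2FC -3.55, SE 0.29, adjusted p = 8.29e-12) and cDC2_WT (log2FC -3.20, SE 0.28, adjusted p = 5.91e-11) than in pDC_WT. The zinc exporter to the early secretory pathway, Slc30a5 (ZnT5), averaged 143 ± 15.9 CPM in cDC1_WT, 160.0 ± 19.4 in cDC2_WT and 277 ± 24.9 in pDC_WT.

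Among cation-chloride cotransporters, Slc12a2 was highest in cDC2_WT and Slc12a7 in cDC1_WT. Slc12a4 was lower in both populations than in pDC_WT (log2FC -1.62, SE 0.14 for cDC1_WT, and log2FC -1.14, SE 0.14 for cDC2_WT). Slc12a2 (NKCC1), which brings sodium, potassium and chloride in, held 23.2 to 63.3 (median 46.7) CPM in cDC1_WT, 300.3 to 498 (median 368) in cDC2_WT and 0.784 to 5.55 (median 2.01) in pDC_WT (log2FC -3.02, SE 0.31, adjusted p = 2.18e-09 for cDC1_WT against cDC2_WT). Slc12a7 (KCC4), which takes potassium and chloride out, held 35 to 52.7 (median 37.8) CPM in cDC1_WT, 0 to 7.03 (median 3.82) in cDC2_WT and 3.60 to 15.8 (median 5.16) in pDC_WT (log2FC 3.46, SE 0.47, adjusted p = 4.12e-07 for cDC1_WT against cDC2_WT). Slc8a1 averaged 53.2 ± 13.4 CPM in cDC1_WT, 88.6 ± 14.3 in cDC2_WT and 18 ± 5.89 in pDC_WT, so that pDC_TG, at 6.07 ± 3.53, was the lowest group. Slc4a8, a sodium-driven chloride/bicarbonate exchanger, had 15.7 ± 6.38 CPM in cDC1_WT and 34.9 ± 6.37 in cDC2_WT, against 0.872 ± 0.871 in pDC_WT.

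Among vitamin and choline carriers, Slc44a2 held 97 to 132 (median 119) CPM in cDC1_WT, 503 to 635 (median 536) in cDC2_WT and 996 to 1354 (median 1173) in pDC_WT (log2FC -3.31, SE 0.08, adjusted p = 6.66e-25 for cDC1_WT against pDC_WT). Slc44a1, the main choline transporter-like protein of many tissues, had its lowest level in cDC1_WT as well, with 47.6 ± 6.19 CPM in cDC1_WT, 118 ± 3.30 in cDC2_WT and 245 ± 21 in pDC_WT. Slc44a5, of the same family, was seen almost only in cDC2_WT among these libraries, at 6.91 to 18.6 (median 11.2) CPM, with 2 counts over cDC1_WT and 1 over pDC_WT. The riboflavin importer Slc52a3 held 0.797 to 8.96 (median 3.95) CPM in cDC1_WT, 0 to 1.55 (median 0.397) in cDC2_WT and 31.6 to 66.7 (median 39.5) in pDC_WT (log2FC -3.37, SE 0.64, adjusted p = 4.14e-05 for cDC1_WT against pDC_WT; log2FC -6.08, SE 0.74, adjusted p = 4.02e-08 for cDC2_WT). The pDC_TG level of 4.92 ± 5.49 CPM was thus close to that of cDC1_WT, 4.18 ± 2.96; that pair was not tested. Of the organic ion carriers, Slc22a18, an organic cation transporter-like gene of an imprinted region, had 8.41 to 16.9 (median 12.6) CPM in cDC1_WT and 0.501 to 4.87 (median 1.87) in cDC2_WT, and no count in pDC_WT, so that cDC1_WT was at least 857-fold higher than the level of 3 counts over that group. The sodium-phosphate cotransporters Slc20a1 and Slc20a2 were higher in cDC1_WT, at 22.5 ± 6.38 and 37.3 ± 7.63 CPM, than in pDC_WT, at 8.19 ± 2.99 and 8.44 ± 4.33 CPM, and 13.1% of the exonic bases of Slc20a1 are shared.

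Of 6 carriers of nucleotide sugars and acetyl-CoA, 2 were higher, 1 was lower and 3 did not pass between cDC1_WT and pDC_WT. Of genes with 10 CPM in a group, 35.2% were higher and 32.6% lower there. Slc35a2, the UDP-galactose carrier, averaged 30.7 ± 5.97 CPM in cDC1_WT, 30.8 ± 5.25 in cDC2_WT and 30.7 ± 5.27 in pDC_WT, and the log2FC in the comparisons of the WT groups were 0.00, 0.01 and -0.01, each with an SE of at most 0.13. Slc25a44, a carrier of branched-chain amino acids into mitochondria, averaged 30.8 ± 6.25 CPM in cDC1_WT, 31.2 ± 7.27 in cDC2_WT and 32.2 ± 7.36 in pDC_WT.

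Some members lie near each other in the genome (GRCm38, GENCODE M21), and 10 pairs were within 500 kb. Only some of these pairs are described, picked with their values known. Slc31a2 (chr4:62262562-62298411) and Slc31a1 (chr4:62360727-62391769), 62.3 kb apart, were both lower in pDC_TG than in pDC_WT and both higher in cDC1_WT than in pDC_WT. Slc12a4 (chr8:105943590-105966097) and Slc7a6 (chr8:106168857-106198706), 203 kb apart, were both lower in pDC_TG. In no other pair were both members called between pDC_TG and pDC_WT. Slc38a1 (chr15:96571418-96642913) and Slc38a2 (chr15:96687392-96699730), 44.5 kb apart, were unlike, with cDC2_WT against pDC_WT at a log2FC of -0.29 for Slc38a1 and 1.14 for Slc38a2 (adjusted p = 0.0192 and 4.19e-09). The call for Slc38a1 was lost without pDC_WT replicate 3 or 6, with adjusted p of 0.0631 and 0.0539.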

How the data were processed

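RNA was amplified with a SMART-Seq kit and sequenced as single reads without strand information, per the labels' protocols. The submitters' processing notes name TopHat2 2.1.0, SAMtools 0.1.18, Trimmomatic 0.35, FastQC 0.11.4 and build mm10. The counting tool and annotation are not given in the sources used here. Each deposited table holds unnormalized read counts by gene symbol, in whole numbers. Lines without a gene entered neither library sizes nor tests; they are 8.23% to 18.7% (no feature) of the reads counted.

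Differences were tested with edgeR 4.0.16 in R 4.3.3 (TMM scaling, filterByExpr by group with a minimum count of 10, robust quasi-likelihood fit of all 28 libraries, two-sided tests). Of the genes, 13159 passed the filter, and the threshold was a Benjamini-Hochberg adjusted p below 0.05 over these. The standard error (SE) beside a log2 fold change is the absolute log2FC divided by the square root of the F statistic of its test. It was not estimated directly by the fit. DESeq2 1.42.0 was an alternative. The scripts were tested on simulated data with 200 changed genes. Exon lengths, positions and shared exonic bases came from GENCODE M21 on GRCm38, in which all 137 symbols were found. Membership used CPM before TMM scaling. A floor of 3 counts over a group stood in for a group without counts; it and the depth cover counting error only, as PCR copies are not independent molecules.

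Named members are the 10 largest positive and negative changes per comparison past the threshold, the 3 highest of each class, the threshold's neighbours and a set of immune-cell carriers; any further members were picked with their values known. Members, classes and lists were chosen with earlier results of these data known. The labels number the libraries of each group, but do not say that each came from a separate animal. The p-values therefore measure the spread between libraries, which may be in part technical. No pair of libraries of a group agreed within sampling noise (lowest chi-square per degree of freedom 34.9). Which library ran on which of the 2 flow cells is not given, so no batch term was fitted. A few members count in the totals but are not reported here by name.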

Additional observations from a re-analysis of the deposited data

Results flagged for a closer look

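In 544 sets of member and group tested, 28 (5.15%) held a library whose gap to its nearest neighbour was too large for the range of its group by Dixon's criterion, and chance gives about 1 in 20. Their causes were not tested. Of these, 26 are listed. Values are TMM-scaled CPM, with the range of the other libraries of the group in brackets.

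pDC_TG libraries that lay above the rest of their group were Slc11a1 in replicate 3 at 0.865 CPM (others 0 to 0.0638), Slc6a12 in replicate 2 at 0.0378 CPM (others 0) and Slc7a8 in replicate 2 at 0.681 CPM (others 0).

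cDC1_WT libraries that lay above the rest of their group were Slc16a6 in replicate 3 at 60.2 CPM (others 13.4 to 32.6), Slc25a29 in replicate 8 at 12.9 CPM (others 3.13 to 7.58) and Slc9a2 in replicate 7 at 1.83 CPM (others 0 to 0.474). One cDC1_WT library lay below its group, for Slc7a5 in replicate 6 at 52.1 CPM (others 65.2 to 75.7).

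cDC2_WT libraries that lay above the rest of their group were Slc11a1 in replicate 5 at 50.4 CPM (others 19.1 to 33.3), Slc22a18 in replicate 6 at 4.87 CPM (others 0.501 to 2.46) and Slc25a14 in replicate 6 at 8.67 CPM (others 5.13 to 6.13). cDC2_WT libraries that lay above the rest of their group were Slc30a4 in replicate 8 at 61.6 CPM (others 40.1 to 49.8), Slc30a5 in replicate 6 at 201 CPM (others 139 to 166) and Slc37a4 in replicate 3 at 27.5 CPM (others 12 to 18.9). One cDC2_WT library lay above its group, for Slc41a2 in replicate 5 at 6.60 CPM (others 0 to 3.11). One cDC2_WT library lay below its group, for Slc25a45 in replicate 7 at 37.5 CPM (others 54.2 to 66.9).

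pDC_WT libraries that lay above the rest of their group were Slc11a1 in replicate 3 at 0.525 CPM (others 0 to 0.0376), Slc16a1 in replicate 5 at 10.8 CPM (others 0 to 4.28) and Slc25a53 in replicate 8 at 182 CPM (others 143 to 159). pDC_WT libraries that lay above the rest of their group were Slc44a5 in replicate 6 at 0.0391 CPM (others 0), Slc7a8 in replicate 1 at 0.806 CPM (others 0) and Slc9a2 in replicate 2 at 5.34 CPM (others 1.13 to 2.92). pDC_WT libraries that lay below the rest of their group were Slc25a12 in replicate 8 at 155 CPM (others 206 to 231), Slc25a51 in replicate 3 at 55.2 CPM (others 73.2 to 81.5) and Slc2a8 in replicate 2 at 4.70 CPM (others 8.99 to 12.6). pDC_WT libraries that lay below the rest of their group were Slc39a11 in replicate 4 at 106 CPM (others 130.0 to 150.0) and Slc4a7 in replicate 7 at 53.1 CPM (others 63.8 to 70.5).

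Several of these concern levels near 0, such as Slc11a1 and Slc7a8 in the pDC groups, Slc44a5 in pDC_WT and Slc6a12 in pDC_TG. Of the members with at least a 2-fold difference between pDC_TG and pDC_WT, Slc9a2 had such a library in pDC_WT, and its level there stayed below every pDC_TG library.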

How the results depend on the processing

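Of 205 values of single members under the alternatives (4905 in all), 4676 kept their direction and side of the threshold, 133 fell short of it, 40 newly passed, 55 uncalled values moved and 1 reversed. The reversal was Slc25a4 in cDC1_WT against pDC_WT, uncalled at a log2FC of 0.08 and lower at -0.17 (adjusted p = 0.00952, edgeR) when counts were scaled by library totals alone. That scaling moved the median of all genes from -0.029 to -0.277 in cDC1_WT against pDC_WT, to -0.162 in cDC2_WT against pDC_WT and to -0.107 in cDC1_WT against cDC2_WT; its splits are given beside the counts.

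Counts of called members fell most in a test against a 1.5-fold change, which asks for more than a difference from 0: to 3 higher and 5 lower in pDC_TG against pDC_WT, to 32 lower in cDC1_WT against pDC_WT, to 29 higher and 28 lower in cDC2_WT against pDC_WT, and to 18 higher and 29 lower in cDC1_WT against cDC2_WT. No other alternative moved a count by over 1.5 times. Leaving out 1 library at a time gave 6 to 9 higher and 16 to 21 lower in pDC_TG against pDC_WT, 48 to 51 and 50 to 55 in cDC1_WT against pDC_WT, 42 to 45 and 48 to 52 in cDC2_WT against pDC_WT, and 41 to 47 and 42 to 45 in cDC1_WT against cDC2_WT.

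Same-numbered libraries correlated by 0.0246 to 0.108 between WT groups and by -0.0269 to 0.0434 between pDC_TG and pDC_WT. The labels do not say whether a number marks the same mouse, so the main fit did not pair the numbers. As a hint of pairing, 7 of 8, 7 of 8 and 8 of 8 libraries of the WT groups correlated best with their own number. Median same-number correlations were 0.0739, 0.0585 and 0.0586 there, against -0.00701, -0.00914 and -0.0107 for other numbers. The main p-values between WT groups leave this out. Between pDC_TG and pDC_WT, 0 of 4 libraries matched their own number best, so a block by number has no such ground there. With a replicate block the counts were 9 higher and 22 lower in pDC_TG against pDC_WT, 49 and 55 in cDC1_WT against pDC_WT, 45 and 52 in cDC2_WT against pDC_WT, and 46 and 45 in cDC1_WT against cDC2_WT. Under that block Slc43a3 (adjusted p = 0.105, edgeR) and Slc2a6 (0.0519) lost their calls between pDC_TG and pDC_WT, and 5 members gained one. Members near 0 in a group, such as Slc11a1 or Slc7a8 in pDC, have folds that rest on a few reads.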
